A study of Mus musculus with 12 samples.

Results

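Ctsk, Mmp14, Mmp9 and Loxl1 are 4 genes that act on the extracellular matrix, 3 of them proteases and 1 a crosslinking enzyme. They were selected by gene symbol from the m6A peaks of mouse liver, and results of the comparison of read counts after bile duct ligation with control were known when they were chosen. They hold 6 of 7460 distinct peaks and are 4 of 4434 genes with a peak annotated to that gene alone. No inhibitor is among the 4 genes. Because the comparison of bile duct ligation with control chose them, their differences between the groups are given as a description, without a test.

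N6-methyladenosine (m6A) is a methyl mark on adenosines of RNA, and an antibody against it pulls down (IP) the RNA fragments that carry it. The IP libraries came from livers of male C57BL/6 mice aged 12 weeks, 3 with hepatic fibrosis caused by bile duct ligation (BDL), in which surgery blocks the outflow of bile, and 3 from normal mice that served as control. The labels name no sham operation and do not say whether each sample is a separate mouse, so the spread between samples may be technical. Input libraries, the RNA kept before the antibody step, were not analysed here, so an IP difference can come from more transcript, more methylation, or both.

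In fibrosis, matrix is laid down, cut and crosslinked at the same time. Cathepsin K (Ctsk) is a cysteine protease of lysosomes, best known from bone-resorbing osteoclasts, that can cut the collagen triple helix. Mmp14 is a membrane-anchored metalloproteinase that cuts fibrillar collagen and activates the secreted pro-form of Mmp2. Mmp9, or gelatinase B, is secreted and cuts denatured collagen and basement membrane collagen. Loxl1 is a copper-dependent amine oxidase that prepares elastin and collagen for crosslinking. Proteases of this kind are made by stellate cells, fibroblasts and macrophages, and Mmp9 also by neutrophils.

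The IP libraries held 20540863, 35691860 and 26690519 reads in peaks in BDL and 15254737, 19251404 and 19378332 in control. Levels are CPM, the reads of a gene per 1000000 reads in peaks after TMM scaling, which adjusts for differences in library composition. In bulk liver, a change in the number of cells of a type and a change in RNA per cell cannot be told apart.

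The peaks of the 4 genes lay at different places along the gene. The Mmp9 peak was the only one in the last 20% of its gene span, where 64.4% of the 6474 peaks annotated to 1 gene lie. Coordinates count from 1 in the build of the deposited table, which is not named in the sources used here, and the peaks were not placed in exons or untranslated regions. Loxl1 (ENSMUSG00000032334, minus strand) had its peak at chromosome 9, 58312190 to 58312364, which is 822 bases from the 5′ end of a gene span of 25449 bases, or 3.57% along it. The first 20% of the span holds 9.47% of such peaks. The Mmp9 peak (ENSMUSG00000017737, plus strand) lay at chromosome 2, 164954963 to 164955137, 89.5% along the span and 713 bases from its 3′ end. The Loxl1 and Mmp9 peaks were 175 bases wide, the median width of all peaks.

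Ctsk and Mmp14 each had 2 narrow peaks side by side, away from the ends of the gene. The Ctsk peaks (ENSMUSG00000028111, plus strand) lay at chromosome 3, 95502651 to 95502700 and 95502726 to 95502800, with 25 bases between them, 33.8% and 34.7% along the span. The Mmp14 peaks (ENSMUSG00000000957, plus strand) lay at chromosome 14, 54440647 to 54440721 and 54440772 to 54440821, with 50 bases between them, 66.0% and 66.8% along the span. These places depend on the annotated gene ends. The deposited table gives Mmp14 a span of 13753 bases and Mmp9 one of 7632, while the gene lengths in the RefSeq GRCm38.p6 table are 10859 and 15525. For Ctsk (10107 and 10178) and Loxl1 (25449 and 25490) the lengths are close.

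**Figure D1:**
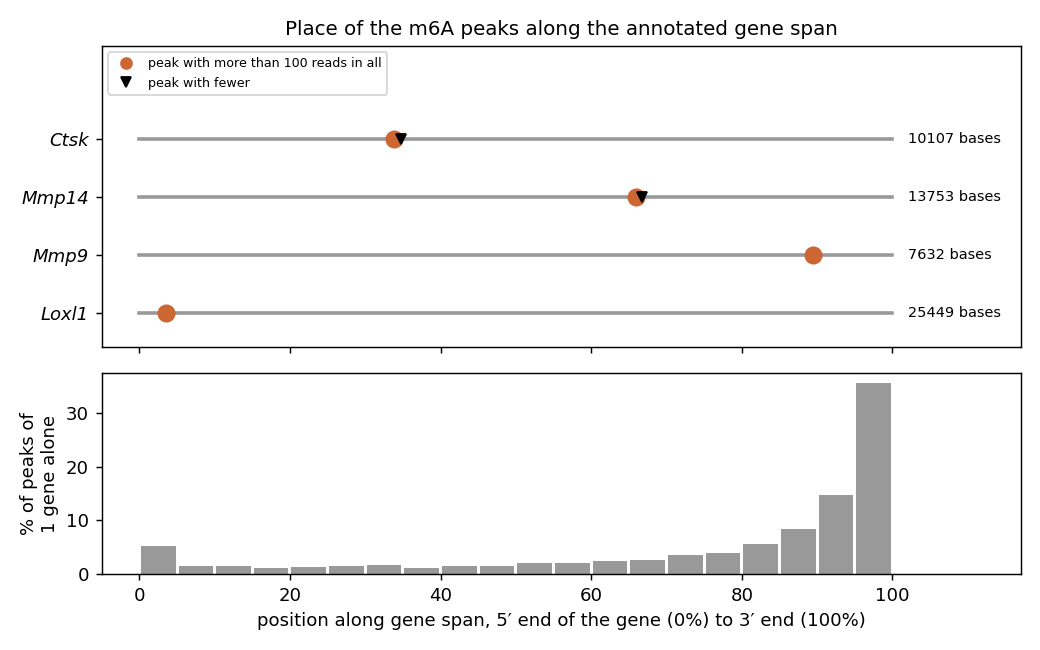
Upper panel, the 6 peaks of Ctsk, Mmp14, Mmp9 and Loxl1 as percent of the annotated gene span (x axis, 5′ end at 0, 3′ end at 100), with the span in bases at the right. Circles are peaks with more than 100 reads over all libraries and triangles those with fewer. Lower panel, percent of all peaks annotated to 1 gene in each step of 5 percent. The Loxl1 peak sits at 3.57%, the Ctsk pair at 33.8% and 34.7%, the Mmp14 pair at 66.0% and 66.8% and the Mmp9 peak at 89.5%.

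Of the 4 genes, Ctsk and Mmp14 have a promoter in the RefSeq table used here. Both are shown so that the motifs of 2 genes with higher IP reads in BDL can be set side by side. The windows run from 250 bases before to 50 bases after the gene start, on the plus strand of GRCm38.p6, 5′ to 3′, at chr3:95498960-95499259 for Ctsk and chr14:54431348-54431647 for Mmp14. Capitals mark matches to any of the 4 motifs searched on both strands. The AP-1 motif was searched as TGANTCA. The GC box, bound by Sp1, was searched as GGGCGG. The core promoter element named the TATA box was searched as TATAAA. A form of the core bound by ETS factors was searched as GGAANT.
Ctsk: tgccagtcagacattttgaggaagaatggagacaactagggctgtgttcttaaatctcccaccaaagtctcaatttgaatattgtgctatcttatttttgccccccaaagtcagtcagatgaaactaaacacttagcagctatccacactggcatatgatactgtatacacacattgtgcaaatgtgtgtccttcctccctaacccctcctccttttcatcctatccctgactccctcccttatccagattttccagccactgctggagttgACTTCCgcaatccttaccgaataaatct
Mmp14: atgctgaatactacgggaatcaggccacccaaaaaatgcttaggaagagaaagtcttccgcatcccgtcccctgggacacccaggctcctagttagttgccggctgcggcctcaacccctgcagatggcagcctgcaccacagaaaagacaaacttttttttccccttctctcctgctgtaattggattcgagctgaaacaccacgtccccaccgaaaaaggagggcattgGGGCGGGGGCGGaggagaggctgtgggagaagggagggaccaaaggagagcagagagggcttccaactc
The Ctsk window, with 43.7% G and C, held 1 match, to GGAANT on the minus strand. The Mmp14 window, with 56.0% G and C, held 2 matches, both to GGGCGG, which follow each other without overlap. Of 32851 promoters in the table, 53.4% hold GGAANT, 35.7% GGGCGG, 13.6% TATAAA and 7.81% TGANTCA, and the median G and C content is 52.7%. No motif of the 4 was found in both windows.

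In Ctsk, all IP reads lay in BDL livers and in the first of its peaks. This peak, 50 bases wide, held 164, 1079 and 466 reads in BDL replicates 1, 2 and 3 and 0 in each control library. The second Ctsk peak, 75 bases wide, held 0 reads in all 6 libraries, although it is listed as a peak. The level of the gene was 7.33, 26.7 and 15.0 CPM in BDL, a mean of 16.3 ± 9.76 (SD, n = 3). BDL replicate 2 was the highest and replicate 1 the lowest, a ratio of 3.64. If every control library is given a floor of 3 reads, the BDL mean was at least 85.7-fold higher. The lowest BDL library alone was at least 33.0-fold above the highest control floor. These bounds cover counting error only, and they assume that a 0 means that no read was seen. Of 4306 genes with enough reads to be tested, 60 had no control reads and reads in every BDL library, as Ctsk did.

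In Mmp14, the first peak, 75 bases wide, held 1321, 3043 and 2556 reads in BDL and 393, 294 and 371 in control. The second, 50 bases wide, held 37 reads in BDL replicate 1 and 0 in the other libraries. Summed over both peaks, the level was 60.7, 75.3 and 82.3 CPM in BDL and 29.1, 17.8 and 20.9 in control. The groups did not overlap, and the lowest BDL library was 2.08 times the highest control library. Means were 72.8 ± 11.04 and 22.6 ± 5.85 CPM (SD, n = 3 each), a log2 difference of 1.68 (SE 0.33). Of the 4 genes, Mmp14 had the highest mean level in both groups.

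In Mmp9, the single peak held 643, 1099 and 1153 reads in BDL and 219, 64 and 37 in control. The level was 28.7, 27.2 and 37.1 CPM in BDL and 16.2, 3.87 and 2.08 in control. The groups did not overlap, but control replicate 1 stood close to the BDL libraries, and the lowest BDL library was 1.68 times its level. Means were 31.0 ± 5.35 and 7.39 ± 7.70 CPM (SD, n = 3 each), so the control SD was larger than the control mean. The log2 difference was 2.06 (SE 0.77). Without control replicate 1 it was 3.35, and the ratio of means went from 4.20 to 10.4. Mmp9 was steady among the BDL libraries, with a highest to lowest ratio of 1.37, and uneven among the control libraries, with a ratio of 7.79. Among 808 genes whose control mean was within a factor of 2 of that of Mmp9, the median ratio was 3.54 and 32.4% had a higher one.

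In Loxl1, the single peak held 584, 1157 and 1873 reads in BDL and 153, 70 and 177 in control. The level was 26.1, 28.6 and 60.3 CPM in BDL and 11.3, 4.23 and 9.96 in control. The groups did not overlap, and the lowest BDL library was 2.30 times the highest control library. Means were 38.3 ± 19.1 and 8.51 ± 3.77 CPM (SD, n = 3 each), a ratio of 4.51 and a log2 difference of 2.16 (SE 0.57). BDL replicate 3 held more than the other BDL libraries, and the log2 difference without it was 1.67.

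**Figure D2:**
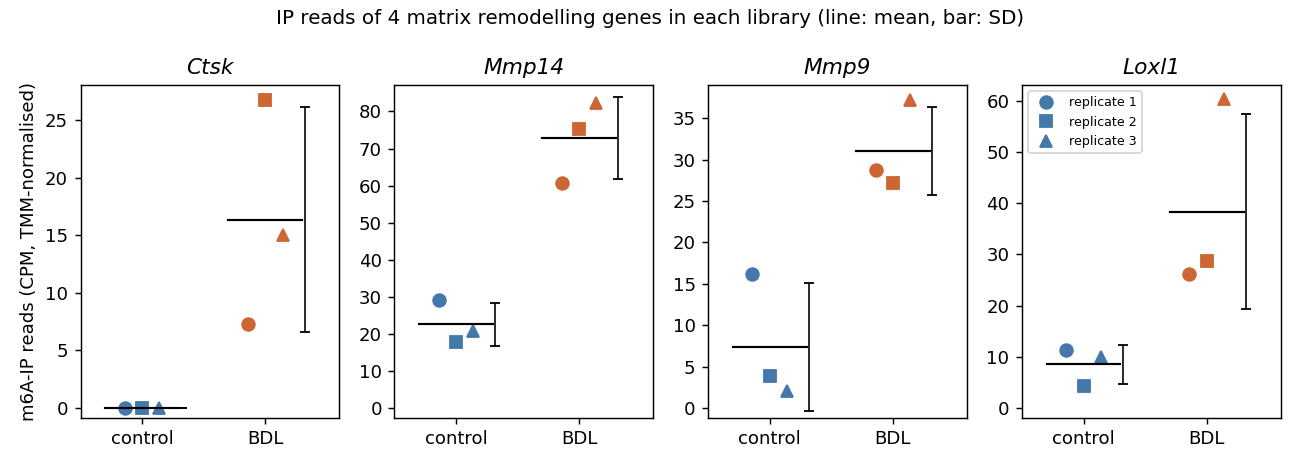
IP reads of Ctsk, Mmp14, Mmp9 and Loxl1, summed over the peaks of each gene (y axis, CPM after TMM scaling, a scale of its own for each gene), in 3 control and 3 BDL libraries. Points are libraries, lines are means and bars are SD. Every BDL library lies above every control library for each gene, and for Mmp9 control replicate 1 (16.2 CPM) lies nearest to the BDL libraries.

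All BDL values lay above all control values for 4 of the 4 genes. This was so for 21.6% of the 4306 tested genes, and all BDL values lay below all control values for 17.3%. Since this comparison chose the 4 genes, nothing is read from their count. The median log2 difference of all tested genes was 0.03. The differences of Mmp14, Mmp9 and Loxl1 were close in size, from 1.68 to 2.16, and their SEs of 0.33 to 0.77 span the gaps between them. When ordered from the highest log2 difference among the tested genes, Ctsk was at place 10, Loxl1 at 291, Mmp9 at 310 and Mmp14 at 426. The place of Ctsk depends on the count added to avoid a logarithm of 0.

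Levels between genes were compared per 100 bases of peak. In BDL, Mmp14 was the highest with a mean of 58.2 CPM per 100 bases of its peaks, followed by Loxl1 (21.9), Mmp9 (17.7) and Ctsk (13.1). Loxl1, Mmp9 and Ctsk differed by less than the spread of their libraries. In control the order was Mmp14 (18.1), Loxl1 (4.86), Mmp9 (4.22) and Ctsk, without reads, and Loxl1 and Mmp9 differed by less than their spread. Set among all tested genes by the same measure, Mmp14 stood at percentile 49.98 in control and 81.3 in BDL, Loxl1 at 16.7 and 54.3, and Mmp9 at 14.7 and 47.4. Ctsk reached percentile 37.1 in BDL. Counting the first peak of Ctsk alone, without its read-free neighbour, its mean BDL level was 32.7 CPM per 100 bases, above the means of Loxl1 and Mmp9. These gaps, too, were less than the spread of the Ctsk libraries, which ran from 7.33 to 26.7 CPM in that peak. The order of the means of Ctsk, Loxl1 and Mmp9 thus rests on whether the second Ctsk peak is counted. The first Mmp14 peak alone was at 96.3 in BDL and 30.1 in control.

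Every read of Ctsk and Mmp14 lay in a narrow peak. Peaks of 75 bases or less make up 16.8% of the 7460 peaks. No reads in any library were found for 14.3% of them, against 0.0483% of wider peaks. Of 106 pairs of such narrow peaks that lie within 100 bases of each other in 1 gene, 35 (33.0%) had at least 1 peak without any read, as Ctsk did. Of 247 such pairs of wider peaks, 0 did. In the median narrow pair the poorer peak held 6.54% of the reads of the pair. Where these zeros come from was not tested.

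The 4 genes did not order the libraries of a group in the same way. Within BDL, replicate 3 was the highest for Mmp14, Mmp9 and Loxl1, and replicate 2 for Ctsk. Replicate 1 was the lowest for Ctsk, Mmp14 and Loxl1, and replicate 2 for Mmp9. Within control, replicate 1 was the highest for Mmp14, Mmp9 and Loxl1, the 3 genes with control reads. Among all tested genes with control reads, 31.5% had their highest control value there, and 20.6% of those called higher in BDL. BDL replicate 3 was the highest BDL library for 33.3% of tested genes with BDL reads and for 44.8% of genes called higher in BDL.

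The genes nearest to each of the 4 in their pattern over the 6 IP libraries were ranked by the root mean square distance of log2 CPM, centred on the mean of each gene. This is a description over 6 libraries that differ in depth and group, and all genes share these differences. The ranking picks genes alike over these same libraries, so the likenesses in library order given below follow from the choice. For Mmp9 the nearest was Sox9, a transcription factor of bile duct cells, at a distance of 0.17. Kctd12, an auxiliary subunit of a GABA receptor, and Fmo2, a flavin monooxygenase, followed at 0.49 each. Sox9 had 36.1, 37.4 and 36.3 CPM in BDL and 21.4, 4.48 and 2.81 in control. It was, like Mmp9, uneven among the control libraries, with control replicate 1 the highest.

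For Mmp14 the nearest genes were Thbd, the endothelial anticoagulant receptor thrombomodulin (0.10), Rwdd3, an enhancer of SUMO conjugation (0.15), and Jun, a subunit of the transcription factor AP-1 (0.19). Thbd had 640.2, 707.8 and 925.5 CPM in BDL and 265.1, 180.6 and 205.3 in control, the same order of libraries as Mmp14 in each group. The AP-1 motif searched above is absent from the printed Mmp14 window, which says only that these letters are not there.

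For Loxl1 the nearest were the sorting receptor Sorl1 (0.32), the large cadherin Fat4 (0.37) and the integrin activator Fermt1 (0.38). Fat4 had 29.9, 25.1 and 50.2 CPM in BDL and 11.4, 7.14 and 14.6 in control, with BDL replicate 3 the highest as in Loxl1. For Ctsk they were Prss35, of the trypsin-like serine protease family, Ptger3, a prostaglandin E2 receptor, and Gpr176, an orphan receptor, at 0.30 each. Gpr176 and Ptger3 also had 0 reads in each control library. Mmp14 and Loxl1 were the closest pair among the 4 genes (0.47), and Ctsk was the farthest from the others (2.63 to 2.90). The distances of Ctsk depend on the count added to avoid a logarithm of 0, since its control libraries hold no reads. The median distance to the genes ranked was 3.74 for Ctsk, 1.07 for Mmp14, 1.68 for Mmp9 and 1.39 for Loxl1.

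**Figure D3:**
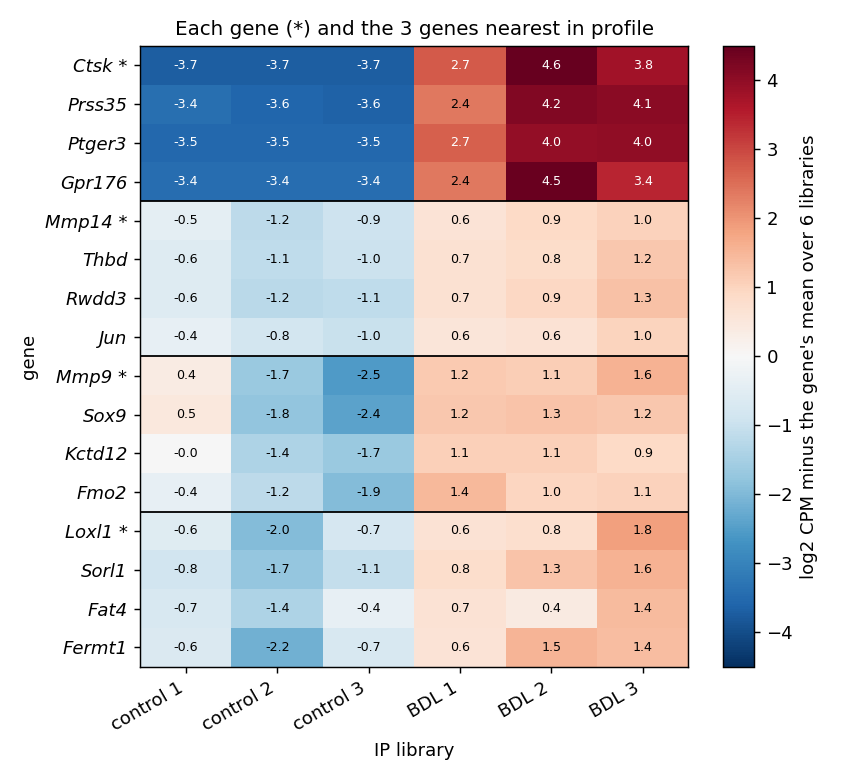
Log2 CPM of each of the 4 genes (marked with a star) and its 3 nearest genes, centred on the mean of each gene over the 6 IP libraries (colour and printed value, rows are genes, columns are libraries). Control replicate 1 stands apart from the other control libraries for Mmp9 and Sox9, and BDL replicate 1 is the lowest BDL library for Ctsk and its 3 neighbours.

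Beyond the 4 genes, 76 other genes of matrix remodelling were listed, and 16 had a peak of their own and enough reads to be tested. Adam10, Adam17 and Ctsb rose in BDL, 3 of 16 (18.8%), and none fell (edgeR quasi-likelihood test, Benjamini-Hochberg over all genes). Over all tested genes 8.2% were called higher and 6.55% lower, so 55.6% of the calls were higher, or 79.3% with scaling by library totals alone. At an unadjusted p under 0.05 there were 4 genes, all 4 higher, and DESeq2 called 4, all higher. The median log2 difference of the 16 was 0.34, against 0.03 over all genes, and it was also 0.34 with no filter. Plod2, Adamts15 and Adamts12 met the read filter only with their BDL libraries. Their log2 values of 4.39, 2.46 and 2.26 were the highest of the 16, so nothing is read from this median.

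Adam10 and Adam17 are membrane proteases that shed the outer parts of surface proteins. Adam10 went from 278 ± 49.3 to 515 ± 137 CPM (SD, n = 3 each), a log2 change of 0.89 (SE 0.23, edgeR adjusted p = 0.0315). Adam17 went from 22.7 ± 10.4 to 68.5 ± 7.24 CPM, a log2 change of 1.59 (SE 0.42, edgeR adjusted p = 0.0353). Ctsb, a lysosomal cysteine protease related to Ctsk, went from 3071 ± 569.9 to 5426 ± 590.0 CPM, a log2 change of 0.82 (SE 0.17, edgeR adjusted p = 0.0160). Of the 16 genes, 5 had every BDL value above every control value (Adam10, Adam17, Ctsb, Plod2 and Adamts15) and 2 every BDL value below (Ctsz and Bmp1), against 21.6% and 17.3% of all tested genes. Plod2 and Adamts15 met the read filter only with their BDL libraries, which partly fixes their direction in advance, so nothing is read from these counts. Of the 6 fits that leave out 1 library, Adam10 passed in 2, Adam17 in 2 and Ctsb in 3. The log2 changes of these genes stayed above 0, which their lack of overlap between the groups all but fixes in advance. Without control replicate 2, Adamts12 was the 1 gene called. Without BDL replicate 2 or BDL replicate 3, edgeR called 0 of the 16 genes. In these 2 fits 3 and 4 of the genes, in this order, had an unadjusted p under 0.05, and 3 were higher in each. Without BDL replicate 1 there were 4 such genes, 3 of them higher. Over the 6 fits the log2 change was 0.66 to 1.04 for Adam10, 1.25 to 1.81 for Adam17 and 0.73 to 0.98 for Ctsb, and the edgeR adjusted p reached 0.126 for Adam10, 0.112 for Adam17 and 0.0769 for Ctsb.

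The tested cathepsins besides Ctsb did not pass. Ctsl had a log2 value of 0.39 (SE 0.19), Ctso of 0.29 (SE 0.18), Ctsz of -0.21 (SE 0.17), Ctsc of 0.71 (SE 0.39) and Ctsh of -0.36 (SE 1.19). Mmp15, the one other metalloproteinase tested and like Mmp14 membrane-anchored, stood at -0.59 on the log2 scale (SE 0.35, edgeR adjusted p = 0.317). Adamts15 and Adamts12, secreted proteases that cut proteoglycans, had log2 values of 2.46 (SE 1.54) and 2.26 (SE 1.57), which did not pass. Bmp1, which cuts procollagen ends, had one of -0.78 (SE 0.37, edgeR adjusted p = 0.215).

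Of the inhibitors, Reck, a membrane inhibitor of metalloproteinases, had a log2 value of -0.48 (SE 0.84).

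Of the collagen crosslinking and maturation enzymes, Plod2, a lysyl hydroxylase, had 13.6, 22.8 and 29.6 CPM in BDL and 0, 0 and 2.87 in control, and it did not pass edgeR (adjusted p = 0.128). Plod1, a related lysyl hydroxylase, had a log2 value of -0.54 (SE 0.47), and P4hb, a subunit of prolyl hydroxylase, one of -0.61 (SE 0.64). Plod2 was the 1 gene that DESeq2 called beyond Adam10, Adam17 and Ctsb.

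**Figure D4:**
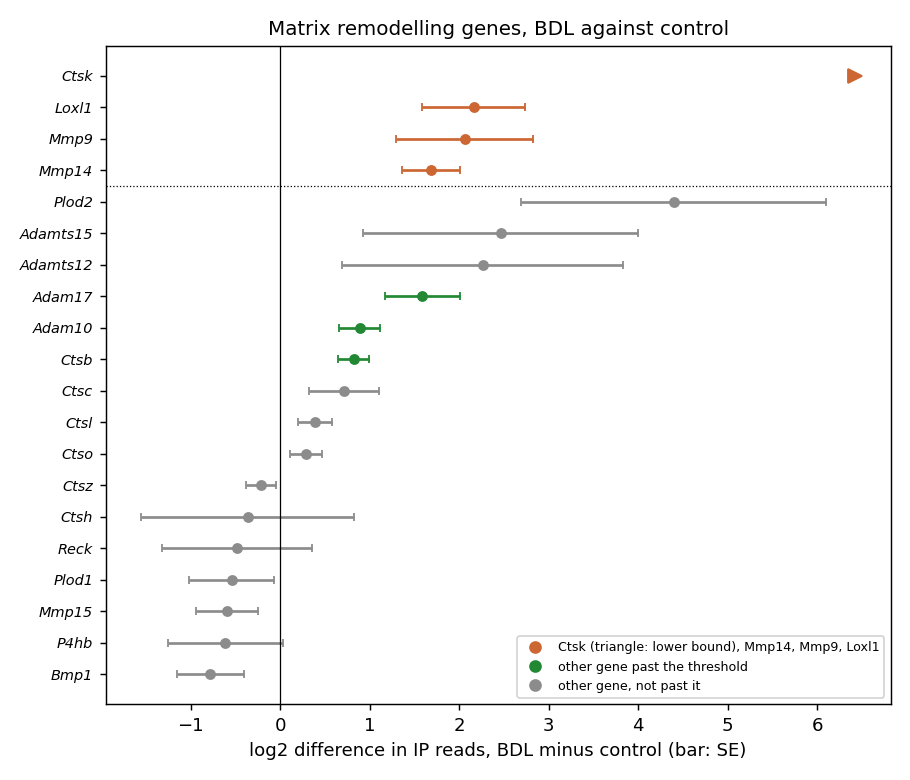
Log2 difference in IP reads, BDL minus control (x axis, bars are SE), for Ctsk, Loxl1, Mmp9 and Mmp14 (top, shown without a test) and the 16 other tested matrix remodelling genes. The triangle for Ctsk is the lower bound from the floor of 3 reads, and the 3 genes past the threshold are Adam17, Adam10 and Ctsb.

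Markers of the cell types that can make these enzymes also moved between the groups, and their part in the differences above was not tested. Of 10 stellate cell and fibroblast markers, 2 were measured, and their summed level was 318 to 488 CPM in BDL and 113 to 211 in control. Of these, Pdgfra, a growth factor receptor, rose (log2 change 1.35, SE 0.30). Of 10 macrophage markers, 5 were measured, with a sum of 2017 to 3008 CPM in BDL and 303 to 729 in control, and 3 rose, Cd14, Gpnmb and Cx3cr1. Most of the sum in BDL was Cd14, with 1634, 2609 and 2413 CPM there and 488, 103 and 149 in control. Clec4f, a lectin of Kupffer cells, the resident macrophages of the liver, lay the other way, with 155, 98.5 and 164 CPM in BDL and 202, 180.3 and 250.4 in control, and did not pass (log2 value -0.60, SE 0.24, edgeR adjusted p = 0.147). Of 8 bile duct markers, 4 were measured, with a sum of 1257 to 1984 CPM in BDL and 28.4 to 40.3 in control, and 2 rose, Cldn4 and Ehf. Most of the sum in BDL was Cldn4, with 926, 1209 and 1498 CPM there and 1.41, 15.4 and 17.2 in control. The other markers of these lists were not measured in a peak of their own, and no measured marker was at 0 in all control libraries.

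The 1 neutrophil marker measured of 8, Csf3r, had 10.2, 13.3 and 9.73 CPM in BDL and 0, 4.35 and 5.52 in control, which did not pass (edgeR adjusted p = 0.497). Control replicate 1, the control library highest in Mmp9, held 0 reads for Csf3r, and control replicates 2 and 3 held 72 and 98. A link between Csf3r and Mmp9 was not tested. Of 6 endothelial markers, 4 were measured and edgeR called 0 of them, while 1 had an unadjusted p under 0.05. Their sum was 409 to 619 CPM in BDL and 396 to 554 in control. Hepatocyte markers, 7 of 8 measured, had a sum of 10058 to 13455 CPM in BDL and 17770 to 21942 in control, the highest of the marker lists in every library. Of these 7, 4 fell and none rose by edgeR.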

How the data were processed

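Livers of BDL and control mice were profiled by m6A immunoprecipitation sequencing. Per the labels' protocols, RNA was fragmented, enriched with an m6A antibody and reverse transcribed with random primers. The submitters' processing notes list HISAT2, Bowtie2 2.2.8, fastp and bcl2fastq 2.17, with no word on what each did. The genome build, the peak caller, how peaks were merged and how reads were counted, with or without strand, are not named there or elsewhere in the labels. The deposited table holds raw read counts of 6 IP libraries in merged peaks, per the file headers. Its RPM columns are, as deposited, a score equal to the count per 1000000 reads over distinct peaks, and were used only to check this. A peak listed for several genes has a line per gene, so the 8649 lines hold 7460 peaks.

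Counts were summed over peaks annotated to 1 gene alone. Low counts were removed with filterByExpr, libraries scaled with TMM, and the groups compared in edgeR 4.0.16 (R 4.3.3) with its robust quasi-likelihood test and a prior count of 2. Calls had a Benjamini-Hochberg adjusted p below 0.05. DESeq2 was version 1.42.0. An SE is the size of the log2 difference divided by the square root of F. Named genes were the 4 genes, listed genes past the threshold, those of highest level per list, and the 3 nearest in profile among tested genes other than predicted models. Ctsh and Cx3cr1 are named to complete a count. The 4 genes and the lists were chosen with earlier results of these data known. A listed remodelling gene is not reported here and was left out of the counts of its list. Alternatives were DESeq2, other scalings, filters and prior counts, narrow peaks or single libraries left out, shared peaks included and the replicate number as a block. No replicate libraries agreed within sampling noise (chi-square per degree of freedom 142 to 218). The labels name no molecular identifiers.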

Additional observations from a re-analysis of the deposited data

How the results depend on the processing

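None of the log2 differences of Ctsk, Mmp14, Mmp9 and Loxl1 changed sign under any alternative run. Nothing is read from this, since every BDL value lay above every control value for each gene, which all but fixes the sign. The fitted value of Ctsk, whose control libraries hold no reads, ran from 5.31 with the highest prior count tried to 11.6 with the lowest. For the size of its difference only the bound from the floor is thus given above, and the bound is another measure than the fitted value. The place of Ctsk in the order of genes and its profile distances rest on the prior count of 2. With peaks of 75 bases or less left out, Ctsk and Mmp14 have no value. Over the fits without 1 library the difference was 1.54 to 1.91 for Mmp14, 1.62 to 3.35 for Mmp9 and 1.67 to 2.42 for Loxl1.

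Counts of calls depended more on the processing, and the cause was not tested. Of 16 other matrix remodelling genes, 3 passed edgeR, 4 passed with DESeq2 (adding Plod2), 5 with library totals alone (adding Ctsl and Ctso) and 0 to 5 without 1 library. Without control replicate 2 it was 1, Adamts12, and without control replicate 3 it was 5. Of all genes, 635 passed, and 223 to 622 without 1 library. With BDL replicates 1, 2 and 3 left out in turn they were 375, 259 and 223. Of peaks, 649 passed, 1169 with DESeq2 and 155 to 611 without 1 library. Scaling by library totals alone moved the median log2 difference of all genes from 0.03 to 0.38 and the share of called genes that were higher from 55.6% to 79.3%, while Mmp14 went to 2.03.

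The replicate numbers share no stated source, and same-numbered libraries did not deviate together (correlations across genes of 0.06, 0.01 and 0.02 for numbers 1, 2 and 3), so the numbers were not used as pairs. With the replicate block 415 genes, 287 peaks and 1 of the 16 remodelling genes, Ctsb, passed. With 3 libraries a group, the spread between libraries, which is beyond counting error, limits the precision of these values.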
